A study of Mus musculus with 2 samples.

Results

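The HSP70, HSP90 and HSP60 chaperones were followed here through 10 genes: Hspa8, Hspa1a and Hspa1b for the HSP70 of the cytosol, Hsp90aa1 and Hsp90ab1 for its HSP90, Hspa5 and Hsp90b1 for the endoplasmic reticulum (ER), and Hspa9, Hspd1 and Hspe1 for mitochondria. They were picked by name from the 43346 genes measured, with no threshold on a measured value. The RNA came from MEL, an immortalized mouse erythroleukemia line whose cells resemble red blood cell precursors. Polyadenylated RNA was sequenced from 1 group of 2 biological replicates. The labels name no treatment, and they leave age and sex open, so no condition was compared and the data give levels and the spread between replicates.

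Chaperones bind unfolded protein and use ATP to release it folded. HSP70 proteins take up short exposed stretches with the help of J domain proteins and let go with the help of nucleotide exchange factors, HSP90 proteins act late on kinases and receptors together with cochaperones, and the HSP60 ring with its HSP10 lid encloses whole proteins in mitochondria. Each compartment has its own set, and in the cytosol a constitutive gene stands beside genes that heat shock factor 1 switches on under stress. In red cell precursors HSP70 is known to guard the factor GATA1 from cleavage, and HSP90 is known to bind the heme-regulated kinase that controls globin synthesis.

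Expected counts are reads after ambiguous ones have been divided between their possible sources, and their sum over genes was 67735380 in replicate 1 and 79923143 in replicate 2. For a gene with 0 counts, the upper limit of 3 counts is 4.43e-06% of reads in replicate 1 and 3.75e-06% in replicate 2, for counting error only. Levels are given as TPM, a share of transcripts corrected for length on a scale with the same sum in each library. The labelled cell type was checked against its markers: 10 of 10 erythroid markers reached 1 TPM in both replicates, between 35.8 and 376 TPM, and Spi1, the gene that Friend virus activates in such lines, lay at 67.7 and 104.6 TPM. None of 7 markers of other cells reached 1 TPM, the highest value being 0.46.

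Of the 10 genes, 8 were among the strongly expressed genes of the line and 2, the inducible pair Hspa1a and Hspa1b, lay at or near 0. The 8 ranged from a mean of 540.4 TPM (Hspa5) to 3814 TPM (Hsp90ab1) and took ranks 10 to 202 among 21474 protein-coding genes, whose median was 0.49 TPM. Together the 10 genes took 1.501% of the TPM of all genes in replicate 1 and 1.023% in replicate 2, a mean of 1.26% ± 0.338 (SD, n = 2). As a share of reads, which favours long transcripts, they took 1.89% and 1.37%. In bulk RNA, fewer expressing cells and less RNA per cell cannot be told apart.

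In falling order of mean TPM stood Hsp90ab1, Hspa8, Hsp90aa1, Hspd1, Hspe1, Hsp90b1, Hspa9 and Hspa5. Among the 7 neighbouring pairs in this order, only Hsp90ab1 and Hspa8 had ranges over the replicates that did not overlap, and 4 pairs kept their order in both replicates. With 2 libraries, ranges alone resolve only the step from Hsp90ab1 to Hspa8. Within each library, Hsp90aa1 over Hspd1, Hspe1 over Hsp90b1 and Hsp90b1 over Hspa9 also kept their order. The other neighbours changed order between the libraries.

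**Figure D1:**
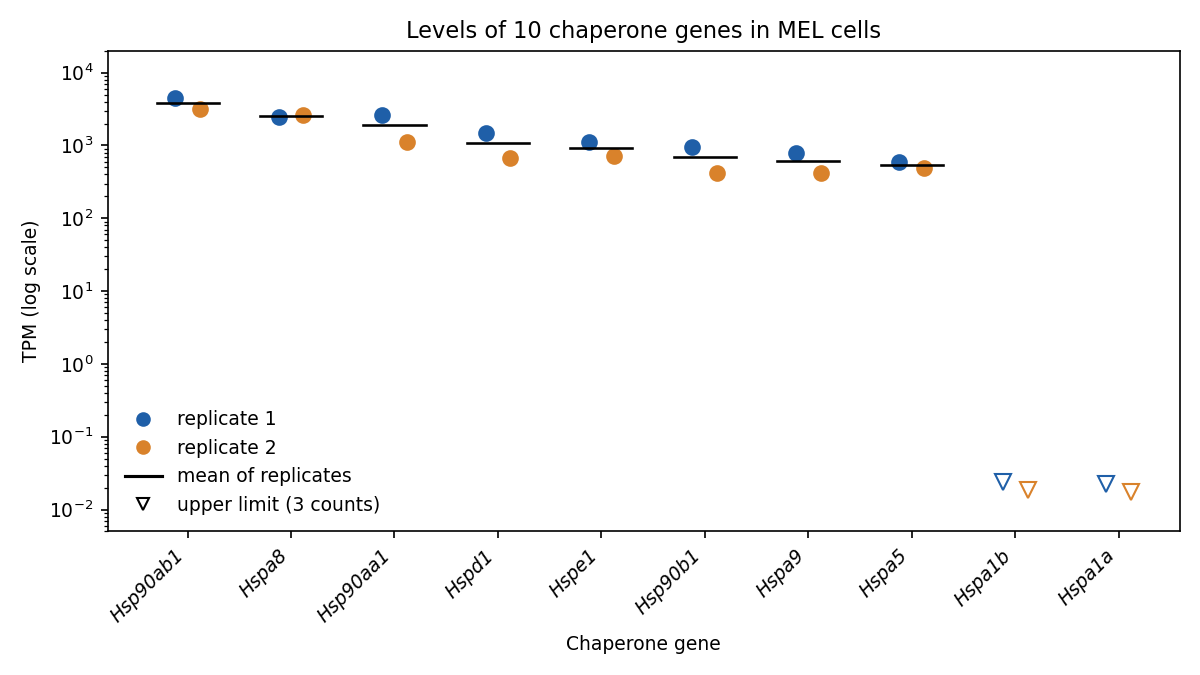
TPM of the 10 genes on a log axis, with 1 point per replicate and a bar at the mean; open triangles mark the level that 3 counts would give for genes with fewer counts than that. The 8 expressed genes lie between 414.7 and 4499 TPM, and Hspa1a and Hspa1b lie under the limit in both replicates.

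Hspa8 (chr9:40800984-40810087 on mm10, plus strand) encodes the constitutive cytosolic HSP70, which folds new proteins and strips clathrin from vesicles. It had 2461 TPM in replicate 1 and 2645 TPM in replicate 2, a mean of 2553 ± 130.4 (SD, n = 2), the smallest relative spread of the 8 expressed genes at 5.11% of the mean. The similar level in both libraries came with more doubt about the origin of its reads than in the other expressed genes. Of the 1975 windows of 45 nt in its main transcript Hspa8-202, 85.5% occur identically in another gene. The deposited posterior SD of its count, a measure of doubt in dividing reads, was 1.71 and 1.45 times the counting error, against under 0.2 for each of the other 7 expressed genes.

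A single gene model held most of the counts placed on copies of Hspa8. Gm15459, a processed pseudogene on chromosome 5 (chr5:5781615-5783555) that was picked out after its values were seen, shares 1618 windows with Hspa8. It was assigned 95937 counts in replicate 1 and 52663 counts in replicate 2, or 66.3% and 29.9% of the counts of Hspa8 itself. The posterior SD of its count was 726 and 549, small beside the counts themselves. With the counts of all 10 pseudogenes that share windows added, an alternative chosen after seeing the data, Hspa8 came to 241159 and 228893 counts. Its ratio of scaled counts between replicates then moved from 1.06-fold to 1.35-fold in favour of replicate 1. On the TPM scale the sum was 3567 and 3121, a range that overlaps that of Hsp90ab1 (4512 and 3146 with its own 3 pseudogenes added), so that step of the order was then no longer resolved. Hspa8 with its copies lay instead above Hsp90aa1 without overlap (2673 and 1123 TPM with the 4 pseudogenes of Hsp90aa1 added).

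**Figure D2:**
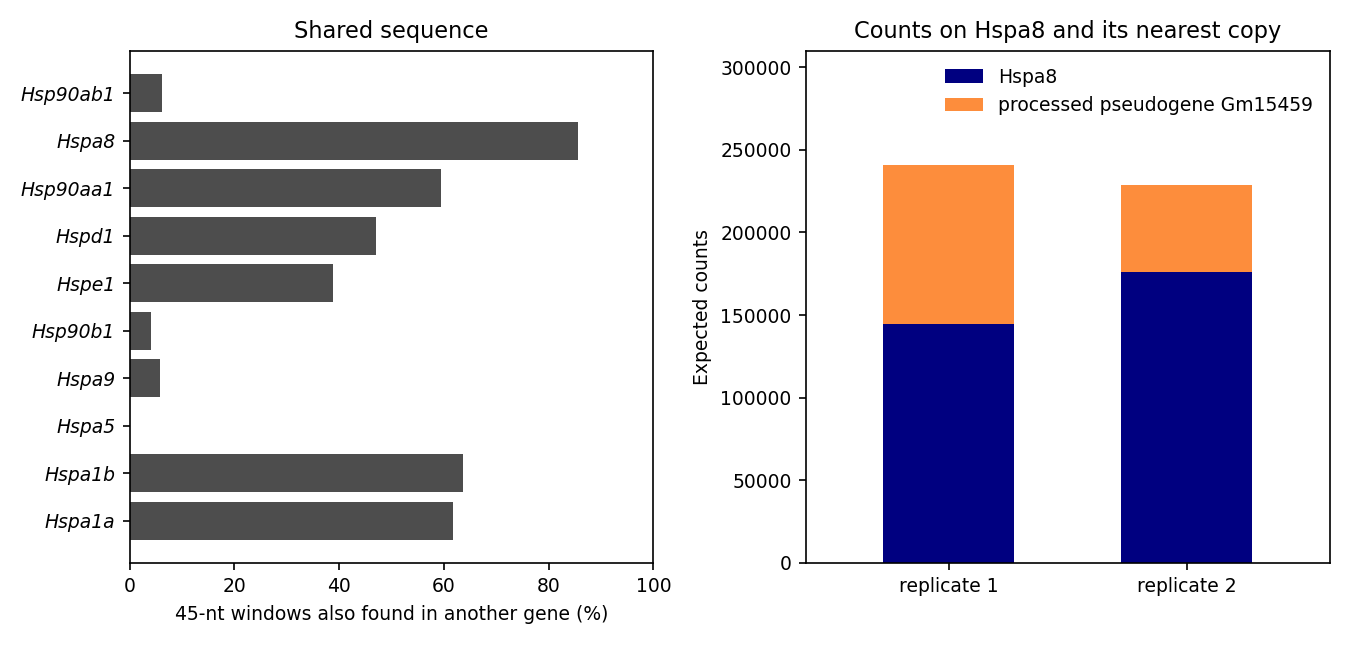
Left, the share of 45-nt windows of each gene's main transcript that occur in another gene (%); right, expected counts on Hspa8 and on the pseudogene Gm15459 in each replicate. Hspa8 shares 85.5% of its windows and Hspa5 none, and the pseudogene holds 95937 and 52663 counts.

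Hspa1a (chr17:34969190-34972156) and Hspa1b (chr17:34956436-34959238), both on the minus strand, encode the near-identical HSP70 proteins that cells make after heat or other protein damage. Their starts lie 12918 bases apart, and the 250 bases before them are the same at 247 positions. The sequences just before both starts are shown because these genes had almost no counts and carry a core of the letters that heat shock factors bind. They are the 150 bases before the start in RefSeq on GRCm38.p6, the assembly that mm10 denotes, for Hspa1a at chr17:34972157-34972306 and for Hspa1b at chr17:34959239-34959388, both on the minus strand, with the inward core of a heat shock element (GAANNTTC) in capitals.
Hspa1a: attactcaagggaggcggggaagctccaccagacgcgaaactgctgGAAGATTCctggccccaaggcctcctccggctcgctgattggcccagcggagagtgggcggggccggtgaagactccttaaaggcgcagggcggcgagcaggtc
Hspa1b: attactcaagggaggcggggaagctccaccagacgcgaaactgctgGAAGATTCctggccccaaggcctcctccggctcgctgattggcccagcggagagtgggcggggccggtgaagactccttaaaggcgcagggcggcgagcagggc

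The core stands at positions -104 to -97 of both genes. Searched in windows from 250 bases before to 50 after the start, it occurs on either strand in 7.86% of 32851 RefSeq promoters. No heat shock element of 3 units with these exact letters was found in the windows of this pair. Hspa1a had 0 counts in both replicates. Hspa1b had 0 counts in replicate 1 and 2.32 in replicate 2, or 0.01 TPM. Against the level that 3 counts per library would give, Hspa8 was at least 110477-fold higher than Hspa1a in replicate 1 and at least 151696-fold higher in replicate 2. Over Hspa1b it was at least 104279-fold higher in replicate 1. In replicate 2, with the count of Hspa1b rounded to 2, the ratio was 214777-fold with a 95% exact Poisson interval from 59456 to 1773490. With the protein-coding transcripts of Hspa8 alone, the bounds were 52865-fold and 54190-fold over Hspa1a and 49899-fold over Hspa1b in replicate 1.

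The pair share 1756 windows of 45 nt, while 1167 of 2923 windows of Hspa1a and 1003 of 2759 windows of Hspa1b are not found in the other. Hspa1l, the neighbouring testis-type HSP70 gene, named after its values were seen, shares 255 windows with Hspa1a and had 1.43 and 1.26 TPM.

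Hsp90ab1 (chr17:45567775-45573271, minus strand), the constitutive cytosolic HSP90, was the highest of the 10 genes. It had 4499 TPM in replicate 1 and 3129 TPM in replicate 2, a mean of 3814 ± 969 (SD, n = 2), and ranked 10 among protein-coding genes. Its main transcript Hsp90ab1-201 had 3158 and 3114 TPM, while its short coding model Hsp90ab1-208 (656 nt) had 1327 and 1.42 TPM. The scaled counts of the gene differed by 1.12-fold between replicates. Hsp90aa1 (chr12:110690605-110702728, minus strand), the form that stress raises further, had 2654 and 1112 TPM, a mean of 1883 ± 1090. Hsp90ab1 was higher in both replicates, by 1.70-fold and 2.81-fold. The ranges of both genes over the replicates did not overlap, but the mean log2 ratio of 1.13 ± 0.52 stayed under the limit of 1.30. That limit marks 95% of the differences of single genes between the replicates (7199 genes of at least 10 TPM). In replicate 2 alone the log2 ratio was 1.49, past the limit. On protein-coding transcripts alone the lead was 2.97-fold and 3.32-fold. Its mean log2 ratio of 1.65 ± 0.11 passed the limit of 1.26 for such transcripts. The coding sums behind it include short models seen almost only in 1 library, Hsp90ab1-208 in replicate 1 and Hsp90aa1-208 in replicate 2. Hsp90aa1-208 (711 nt) had 0 and 305 TPM. Of the long coding models of Hsp90aa1, Hsp90aa1-202 had 935.1 and 620 TPM and Hsp90aa1-201 had 574.65 and 5.84 TPM. The ratio on long models alone was not tested, so the small SD is no measure of agreement between replicates. Of the windows of Hsp90aa1, 59.5% occur in other genes, but its 4 pseudogenes held counts equal to only 0.748% and 1.00% of its own. The corresponding share of windows was 6.10% in Hsp90ab1. Both cytosolic HSP90 genes together summed to 7153 and 4241 TPM, or 49.1% and 44.2% of the TPM of the 10 genes.

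In the ER, Hspa5 encodes BiP, the HSP70 that also holds the stress sensors of the unfolded protein response inactive, and Hsp90b1 encodes GRP94, the HSP90 that folds integrins and Toll-like receptors. The promoters of both hold the ER stress element, a CCAAT box followed at a fixed distance by CCACG, which the stress factor ATF6 binds together with NF-Y. The element occurs in 39 of the 32851 promoter windows (0.119%) on either strand, and among the 6 genes of the 10 with a RefSeq promoter in the table (Hspa1a, Hspa1b, Hspa5, Hsp90b1, Hspd1 and Hspe1) it was found in these 2. It is printed in capitals, for Hspa5 with its flanks at chr2:34772020-34772049 (plus strand) and for Hsp90b1 in the 185 bases at chr10:86705510-86705694 (minus strand), from RefSeq on GRCm38.p6.
Hspa5: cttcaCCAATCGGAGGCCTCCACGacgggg
Hsp90b1: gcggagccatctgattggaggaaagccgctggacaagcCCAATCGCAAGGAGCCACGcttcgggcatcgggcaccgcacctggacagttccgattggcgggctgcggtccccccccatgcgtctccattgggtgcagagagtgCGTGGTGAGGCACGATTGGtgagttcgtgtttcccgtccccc

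The element stands at -65 to -47 from the RefSeq start of Hspa5. Hsp90b1 holds it at -212 to -194 and, on the opposite strand, at -107 to -89. Hspa5 (chr2:34771970-34777547, plus strand) had 588.2 TPM in replicate 1 and 492.6 TPM in replicate 2, a mean of 540.4 ± 67.6 (SD, n = 2). None of its windows occurs in another gene, and its count had a posterior SD of 0. Hsp90b1 (chr10:86690209-86705509, minus strand) had 962.4 and 419.2 TPM, a mean of 690.8 ± 384. Hspa5 was the lower of both in replicate 1 and the higher in replicate 2, and the mean log2 ratio was -0.24 ± 0.67. The difference was smaller than the limit of 1.30. Reads of Hsp90b1 could include those of gene models that overlap it on the other strand, since use of strand is not given in the sources used here.

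In mitochondria, Hspd1 encodes HSP60, the subunit of the folding ring, and Hspe1 encodes HSP10, the subunit of its lid. Both genes lie head to head on chromosome 1 and share 1 promoter region. The starts of their main transcripts, Hspd1-201 at 55088024 on the minus strand and Hspe1-201 at 55088132 on the plus strand, leave 107 bases between them. A run of 4 alternating heat shock units, 18 bases long, stands 35 bases from the Hspd1-201 start and 56 bases from the Hspe1-201 start. It is shown because it lies between both starts, and the letters below are the plus strand at chr1:55088053-55088082 (RefSeq, GRCm38.p6) with the run in capitals.
Hspd1-Hspe1 interval: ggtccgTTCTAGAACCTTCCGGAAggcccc

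A heat shock element of 3 units occurs in 0.603% of promoter windows, and among the 6 genes with a promoter it was found in Hspd1 and Hspe1. The window of Hspe1 and that of the RefSeq start of Hspd1 at 55087932 overlap by 285 of 300 bases. The window of the other RefSeq start of Hspd1, at 55088243, holds neither the element nor its cores. The outward core (TTCNNGAA), which occurs in 8.52% of windows and overlaps the inward core in this run, was likewise found in these 2 genes.

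Hspd1 (chr1:55077835-55088243) had 1498 TPM in replicate 1 and 670.8 TPM in replicate 2, a mean of 1085 ± 585 (SD, n = 2). Hspe1 (chr1:55088132-55091307) had 1113 and 711 TPM, a mean of 912 ± 284. The ring and lid genes lay within 1.35-fold of each other in both replicates, Hspd1 higher in replicate 1 and Hspe1 higher in replicate 2, with a mean log2 ratio of 0.17 ± 0.36. The annotated genes overlap on opposite strands, so a part of their reads is uncertain. Of the windows of Hspd1 47.0% and of Hspe1 38.8% occur in other genes, but pseudogenes that share windows held counts of no more than 1.01% of either.

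Hspa9, the mitochondrial HSP70 (mortalin) that pulls proteins through the inner membrane and helps build iron-sulfur clusters, had 793.2 and 414.7 TPM, a mean of 604 ± 268 (SD, n = 2). Hspd1 was higher than Hspa9 in both replicates, by 1.89-fold and 1.62-fold, a mean log2 ratio of 0.81 ± 0.16 that did not pass the limit. The 3 mitochondrial genes summed to 3405 and 1796 TPM, against 1551 and 911.8 TPM for the pair of the ER. Of 20 pseudogenes that the annotation or RefSeq names for one of the 10 genes, 3 reached 1 TPM in both replicates and 7 had 0 counts in both. Hspe1-ps2 had 26.9 and 5.69 TPM, Hspd1-ps3 18.7 and 3.96 TPM, and Hspe1-ps3 3.80 and 1.88 TPM. A further 17 pseudogenes are known here only by shared windows, and 4 of them reached 1 TPM in both replicates (Gm15459, Gm12346, Gm6368 and Gm8355, named after their values were seen). Among the 20, the next were Hspa9-ps1 (0.88 and 0.60 TPM), Hspe1-ps5 (0.36 and 0.42 TPM) and Hspd1-ps4 (0.39 and 0.05 TPM).

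Across compartments, the cytosolic Hspa8 stood above Hspa5 and Hspa9 in both replicates. Whether its lead passed the limit depended on which transcripts were counted. Over all transcripts, Hspa8 was 4.18-fold and 5.37-fold higher than Hspa5, a mean log2 ratio of 2.24 ± 0.25 (SD, n = 2), and 3.10-fold and 6.38-fold higher than Hspa9, a mean of 2.15 ± 0.74. These were the 2 of 8 pairs of expressed genes whose mean passed the limit of 1.30 (2.46-fold) with the same sign in both replicates. On protein-coding transcripts alone, an alternative chosen after seeing the data, Hspa8 had 1177 and 944.9 TPM. It was then 2.16-fold and 2.34-fold higher than Hspa5 (1.17 ± 0.080) and 1.499-fold and 2.298-fold higher than Hspa9 (0.89 ± 0.44), both under the limit of 1.26 (2.40-fold) made in the same way from coding transcripts of 6111 genes. The 2 pairs past that limit were instead Hsp90ab1 over Hsp90aa1 (1.65 ± 0.11) and Hspa8 under Hsp90ab1 (-1.83 ± 0.15). Both count the short coding model Hsp90ab1-208, which had 1327 TPM in replicate 1 and 1.42 TPM in replicate 2.

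Over all transcripts, Hspa8 lay below Hsp90ab1 in both replicates (-0.56 ± 0.44), and Hspa5 and Hspa9 differed by -0.09 ± 0.48. The sign changed between replicates in 3 of the 8 pairs. With 2 replicates the smallest p that an exact sign-flip test can give is 0.5, so no test was made.

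The transcripts that carried these levels differed in how stable they were. In 6 of 8 expressed genes the same transcript held at least 50% of the gene's TPM in both replicates. Hspa9-201, Hsp90b1-201, Hspd1-201 and Hspe1-201 each held 97.6% or more. Hspa5-202 held 92.2% and 82.0%, with 5.49% and 15.7% on Hspa5-204, a transcript annotated for nonsense-mediated decay. Hsp90ab1-201 held 70.2% and 99.5%, and the short coding model Hsp90ab1-208 held 29.5% in replicate 1 and 0.05% in replicate 2.

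The remaining genes, Hspa8 and Hsp90aa1, had TPM spread over several models, short ones among them. Hspa8-202, the full coding transcript, held 47.5% and 35.6% of TPM but 73.5% and 62.1% of counts. The processed transcripts Hspa8-209 (24.5% and 47.1% of TPM) and Hspa8-203 (26.7% and 16.6%) held most of the rest. For Hsp90aa1, the coding Hsp90aa1-202 held 35.2% and 55.8% of TPM. The other long coding model, Hsp90aa1-201 (2852 nt), held 21.65% and 0.53% of TPM and 31.5% and 0.72% of counts. The retained intron model Hsp90aa1-205 held 38.8% in replicate 1 and 0.04% in replicate 2, while the coding Hsp90aa1-208 held 0% and 27.4%. Retained intron models of Hsp90aa1 took 43.1% and 15.6% of its TPM but only 9.53% and 2.18% of its counts. On its coding models alone, Hsp90aa1 was 1.61-fold higher in replicate 1, against 2.39-fold for the whole gene. The coding sum includes the short Hsp90aa1-208 (711 nt), which had 0 TPM in replicate 1 and 305 TPM in replicate 2. The fold on the long coding models alone was not tested, so the smaller value cannot be assigned to the retained intron models.

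**Figure D3:**
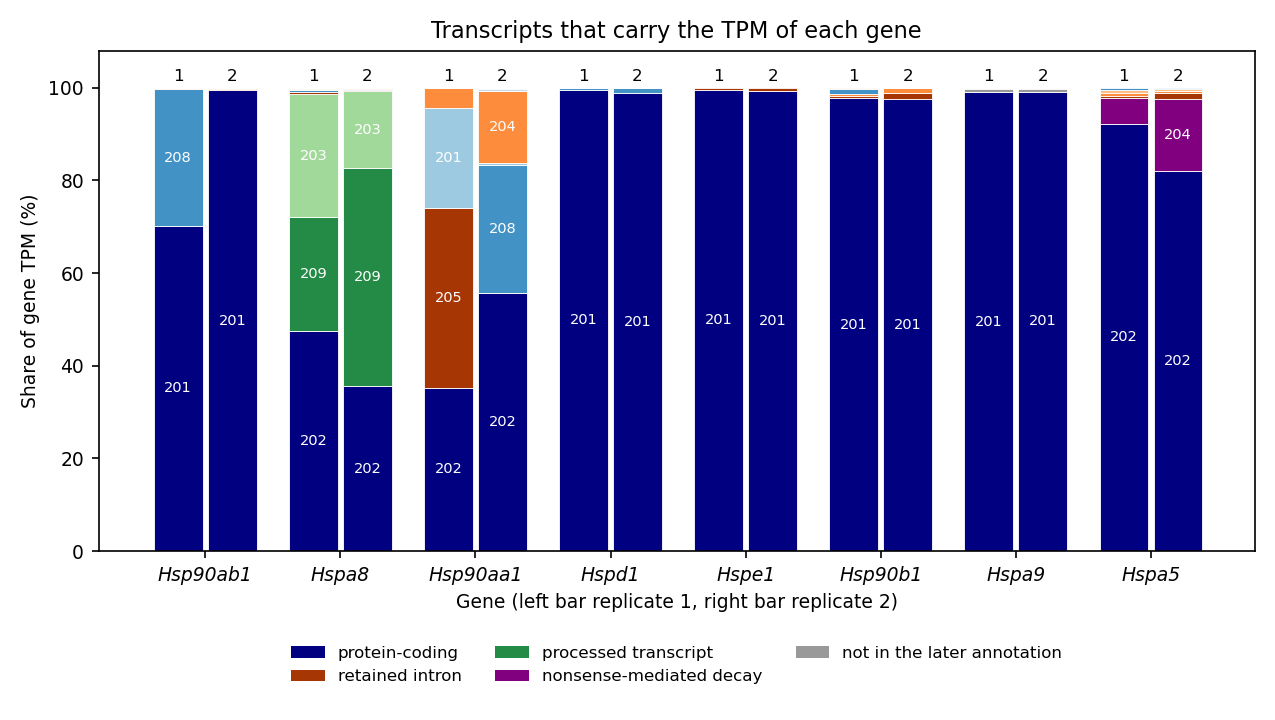
Share of each gene's TPM (%) by transcript, with the left bar for replicate 1 and the right bar for replicate 2, colours by transcript type and numbers for the transcript suffix. Hspa8 and Hsp90aa1 are the genes in which no transcript holds at least 50% in both replicates, and Hsp90aa1-205 holds 38.8% in replicate 1 alone.

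All 8 expressed genes gave higher scaled counts in replicate 1 than in replicate 2, and in 3 the difference was over 2-fold. Hsp90b1 had 122020 counts in replicate 1 and 68166 in replicate 2, a log2 ratio of 1.20. Hsp90aa1 had 236372 and 134170 counts (1.18), and Hspd1 had 163809 and 93208 counts (1.17). These 3 were called by the exact conditional binomial test with Benjamini-Hochberg adjustment over 15251 genes at an adjusted p under 0.05 and at least 2-fold. The other 5 stayed under 2-fold: Hspa9 at 0.94, Hspe1 at 0.65, Hspa5 at 0.41, Hsp90ab1 at 0.17 and Hspa8 at 0.08. Over all tested genes, 19.5% were called, with 11.9% higher in replicate 1 and 7.57% higher in replicate 2, and 77.2% passed the adjusted p threshold alone. The test sets 1 library against 1 library beyond counting error and speaks of no condition.

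The median log2 ratio of the 8 genes was 0.80, against -0.02 over all tested genes. With library totals in place of TMM scaling, the median of all genes moved to -0.14, the share of calls that were higher in replicate 1 went from 61.2% to 45.5%, and Hspa8 changed sign to -0.043. The GC content of the transcripts moved with the difference between replicates. Over all tested genes the median log2 ratio was 0.82 for transcripts under 45% GC, 0.26 from 45% to 50%, -0.32 from 50% to 55% and -0.73 above, and the 8 genes had 42.1% to 51.03% GC against a median of 49.8%. After removal of this trend, chosen after seeing the data, the median of the 8 genes was 0.36 and 0 of them were called (8.09% of all), Hspd1 being nearest at 0.85, and Hspa5 and Hspa8 turned to -0.049 and -0.34.

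**Figure D4:**
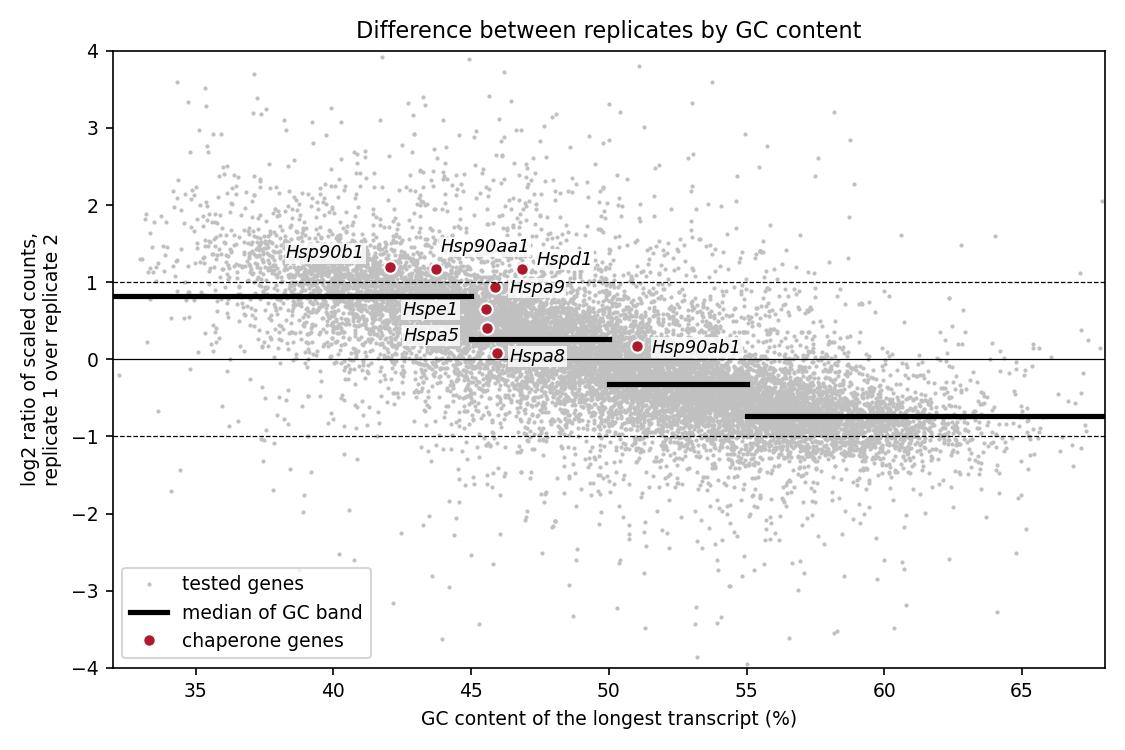
Log2 ratio of scaled counts, replicate 1 over replicate 2, against the GC content of the longest transcript (%) for tested genes (grey, within the axes), with the median of each GC band (black) and the 8 expressed chaperone genes (red); dashed lines mark 2-fold. Hsp90b1, Hsp90aa1 and Hspd1 lie above the upper line, and Hsp90ab1, at 51.03% GC, lies above the median of its band, -0.32.

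Most partner genes of these chaperones were expressed. Of 129 listed genes 128 were found, and 115 of these (89.8%) reached 1 TPM in both replicates, against 46.8% of protein-coding genes, while 96 (75%) reached 10 TPM, against 31.4%. Their median was 60.5 TPM. The small heat shock proteins were the exception, with 1 of 9 at 1 TPM in both replicates and 0 of 9 at 10 TPM. Between replicates, 16 were called higher in replicate 1 and 6 higher in replicate 2 of 118 tested, beside the 11.9% and 7.57% over all genes, and 2 (Dnajb6 and Bag1, both higher in replicate 1) after removal of the GC trend, under which 8.09% of all genes were called. Higher in replicate 1 were Hspa4, Hspa4l, Dnajc2, Dnajb6, Dnajb4, Sec63, Dnajb9, Ppid, Chordc1, Cdc37l1, Vbp1, Pfdn4, Hsf2, Canx, Pdia3 and Yme1l1. Higher in replicate 2 were Hspb6, Hspb9, Hsf1, Hsf4, Atf6b and Atf5.

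Among the other HSP70 and HSP110 genes with the mitochondrial HSP90 gene, 8 of 10 reached 1 TPM. The highest was Hspa4, an HSP110 that exchanges nucleotide on HSP70, at 563.4 and 157.4 TPM. Hsph1, its stress-responsive relative, had 241.2 and 200.2 TPM, and Trap1, the mitochondrial HSP90, had 110.7 and 228.9 TPM. Hspa12a was listed with 0 and 1 counts. The genes of this list thus stayed below Hspa5, the lowest expressed gene of the main set, in mean TPM.

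The J domain genes, which hand substrates to HSP70 and start its ATP hydrolysis, reached 1 TPM in 13 of 13 cases in the cytosol, 8 of 8 in the ER and 4 of 5 in mitochondria. In the cytosol Dnajc7 (419.5 and 262.5 TPM), Dnaja1 (394.1 and 270.5 TPM) and Dnajc2 (477.1 and 149.5 TPM), the ribosome-bound J protein, led. In the ER Dnajb11, a partner of BiP, led with 131.7 and 104.2 TPM. In mitochondria Dnajc11 had 149.3 and 119.4 TPM, and Dnajc15 had 0 and 0.03 TPM.

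Nucleotide exchange factor genes reached 1 TPM in 9 of 9 cases, led by Bag1 (253.2 and 177.9 TPM). Grpel1, which serves Hspa9, had 63.4 and 66.2 TPM. Bag3, which is induced along with Hspa1a under stress, was the lowest at 6.35 and 10.1 TPM. HSP90 cochaperone genes reached it in 21 of 21 cases, with a median of 125.7 TPM. Cdc37, which brings kinases to HSP90, had 591.5 and 794.1 TPM, Nudc 558 and 555.7 TPM, and St13, which links HSP70 and HSP90, 628.8 and 316.9 TPM.

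The cytosolic folding ring TRiC and prefoldin, which delivers actin and tubulin to it, had the highest median of the lists of partner genes, 344.8 TPM, with 14 of 15 genes at 1 TPM or more. Cct8 had 996.8 and 594.9 TPM, Cct5 767.7 and 593.4 TPM and Cct2 700.5 and 498.9 TPM. Cct6b, a form known from testis, had 0.23 and 0.16 TPM.

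Small heat shock protein genes were nearly silent: their median was 0, and 1 of 9 reached 1 TPM in both libraries. Hspb6 had 4.16 and 9.44 TPM, Hspb9 0.70 and 1.57 TPM, and Hspb1, a classical target of heat shock factor 1, 0.02 and 0.04 TPM from 0.6 and 2 counts. Hspb3 and Hspb8 had 0 counts in both replicates. Of the heat shock factors themselves, Hsf1 had 36.4 and 78.8 TPM, Hsf2 8.92 and 3.52 TPM and Hsf4 2.72 and 5.40 TPM, and Hsbp1, which binds HSF1 and holds it down, had 97.4 and 67.5 TPM. RNA of the main heat shock factor was thus present in libraries in which Hspa1a, Hspa1b and Hspb1 were at or near 0. Not all stress-responsive genes were silent there, since Hsp90aa1 had 2654 and 1112 TPM and Hsph1 241.2 and 200.2 TPM. Hsf1 and Hsf4 were called higher in replicate 2 and Hsf2 higher in replicate 1, and none of these 3 after removal of the GC trend.

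Genes of ER folding and the unfolded protein response reached 1 TPM in 21 of 21 cases. Calr, the lectin chaperone calreticulin, had 1486 and 816.5 TPM, above Hspa5 and Hsp90b1 in both replicates. P4hb, a disulfide isomerase, had 619.6 and 889.6 TPM, and Canx, the membrane lectin calnexin, 907.4 and 338.9 TPM. The lowest were Ern1, the stress sensor IRE1, at 4.69 and 4.35 TPM and Edem1 at 10.1 and 8.64 TPM. Genes of mitochondrial import and proteolysis reached it in 12 of 12 cases, with Timm23, the import channel that Hspa9 serves, at 322.8 and 326.8 TPM and the protease gene Lonp1 at 166.2 and 222.5 TPM.

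**Figure D5:**
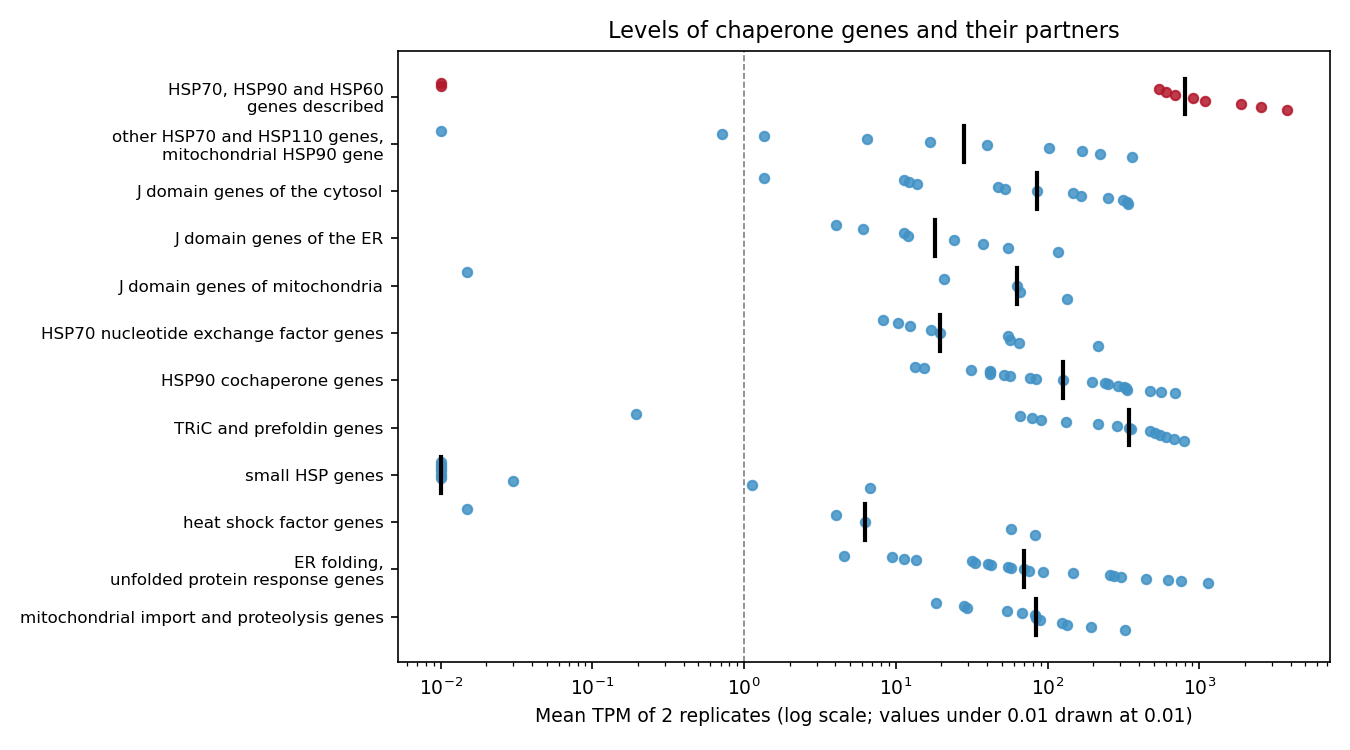
Mean TPM of 2 replicates on a log axis for each gene (points) of the main set (red) and of 11 lists of partner genes (blue), with the median of each list (black bar) and a dashed line at 1 TPM. The median is 801.4 TPM in the main set, 344.8 TPM for TRiC and prefoldin and 0 for the small heat shock proteins.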

How the data were processed

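Polyadenylated RNA of MEL cells was sequenced single-end, per the labels, in biological replicates 1 and 2. Alignment was to mm10 with GENCODE M4, per the file headers and accompanying text. Aligner, quantifier and strand setting: not given in the sources used here. The deposited expected counts hold reads of each gene and transcript, ambiguous ones divided. The deposited TPM and FPKM values were scaled by the authors for effective length and depth. The deposited percent of gene TPM per transcript was used as given, and the deposited score columns hold the posterior SD of the count and bounds of TPM.

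GENCODE M21, on the same build, gave gene names, types and coordinates, and promoters from RefSeq on GRCm38.p6, in which 6 of the 10 members had an entry and Hspa8, Hsp90aa1, Hsp90ab1 and Hspa9 had none. Of 129 listed partner genes, Hspa14 had no match. The members, lists, pairs and motifs were chosen with earlier results of these data known. Named were all members, the 3 highest and 2 lowest genes of each list, every list gene called between replicates and up to 6 pseudogenes of members, of which the text prints a selection. Pairs used log2(TPM + 0.1). Between replicates, genes whose rounded expected counts summed to 20 or more entered an exact conditional binomial test (two-sided) on TMM library sizes (edgeR 4.0.16), and log2 ratios used a prior count of 0.5. Added alternatives were removal of the GC trend (lowess, fraction 0.3), addition of pseudogene counts and pairs on protein-coding transcripts alone. Windows of 45 nt are the length minus effective length of most transcripts (44) plus 1. Motifs were searched on both strands from 250 bases before to 50 after the start. On simulated data of this comparison over 15079 genes, the test called 85 of 100 genes with a 3-fold change, 96 of 100 with a 5-fold change and 1 of 14879 with none. The simulated counts held counting error only, with no GC trend and no other spread between libraries. The rate of false calls therefore does not carry over to the real libraries. Other software was matplotlib 3.10.9, scipy 1.17.1, pandas 2.3.3, numpy 2.4.6, Python 3.11.15, DESeq2 1.42.0 (size factors as an alternative) and R 4.3.3.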

Additional observations from a re-analysis of the deposited data

How the results depend on the processing

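Over the alternatives tried, 128 of the values for single genes and pairs were counted as unchanged, 6 changed sign, 5 lost their call and 3 gained it. For ratios, unchanged means the same direction and the same side of the limit. The 128 also include TPM levels of single genes, which have neither, so the count is no measure of robustness. Of the summary values, 25 kept within their range and 3 moved. The share of the 10 genes was 1.63% of expected counts in place of 1.26% of TPM, since long transcripts weigh more in reads. The number of genes called between replicates was 2976, but 1865 with protein-coding genes alone (15.8% of those tested against 19.5%, the cause was not tested) and 1222 after removal of the GC trend. Hspa8 reversed to -0.043 under library totals and to -0.34 after removal of the GC trend, and Hspa5 to -0.049 after that removal. The same removal took the calls of Hsp90aa1 (0.54), Hsp90b1 (0.40) and Hspd1 (0.85). Without replicate 1, the log2 ratio of Hsp90ab1 over Hsp90aa1 was 1.49, past the limit of 1.30, and the sign turned for 3 pairs. With either replicate left out, Hspd1 over Hspe1 ranged from -0.084 to 0.43, Hspa5 over Hsp90b1 from -0.71 to 0.23 and Hspa5 over Hspa9 from -0.43 to 0.25. On protein-coding transcripts alone, Hspa8 over Hspa5 (1.17) and over Hspa9 (0.89) lost their call, while Hsp90ab1 over Hsp90aa1 (1.65) and Hspa8 under Hsp90ab1 (-1.83) gained one. Levels without replicate 1 or 2 are the values of the other replicate, so they add no check. No paired analysis was possible because the labels give 1 group. The test between replicates has 1 library a side, so neither could be left out. Depth limits statements on Hspa1a and Hspa1b, and shared sequence limits those on Hspa8.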
